A study of Bos taurus with 30 samples.

Results

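The contractile genes of smooth muscle and pericytes were followed through all 30 RNA-seq libraries of a bovine endometrium-on-a-chip study. The 10 genes, of 27607 in the count tables, were ACTA2, TAGLN, CNN1, MYH11, MYLK, LMOD1, DES, MRVI1, CSPG4 and PDGFRB. They were taken by gene name, and each had its own entry in both tables. The list was chosen by gene function with expression values of these libraries in view, and which of those values counted is not recorded. All 10 passed the filter on low counts in every comparison.

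Primary epithelial and stromal cells came from the endometrium of nonpregnant Bos taurus cows in the early luteal phase, and the myometrium had been dissected away before the cells were isolated. On the chip, epithelial cells occupied the upper chamber and stromal cells the lower chamber of a microfluidic device, separated by a porous membrane, and medium flowed for 72 h. One experiment compared 5 mM with 50 mM glucose. The other compared vehicle (acetic acid in PBS), 1 ng/mL insulin and 10 ng/mL insulin, all in medium with 5 mM glucose. Each cell type had 3 libraries per condition. The populations were enriched with strainers and differential plating and were not sorted, so a library can hold cells of the other type. The study calls the 3 replicates biological, while the labels do not say whether they came from separate cows or cultures, so the p-values measure the spread between these libraries.

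Smooth muscle contracts when calcium and calmodulin activate myosin light chain kinase, encoded by MYLK, which phosphorylates myosin and lets it pull on actin filaments. Serum response factor and its myocardin-family partners switch on much of this gene set together. Pericytes, the mural cells of small vessels, and activated fibroblasts use part of the same apparatus, so these genes mark a contractile state and not a single cell type. In the uterus they are best known from the myometrium and from vessel walls.

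Library totals ran from 13493503 to 16647701 counts in the glucose experiment and from 8826470 to 13214728 in the insulin experiment, where 3 counts, the most that a count of 0 allows, equal 0.180 to 0.222 and 0.227 to 0.340 CPM (counts per 1000000 counts of the library). These limits cover counting error only, and every value of the 10 genes lay above them. Summed over 15 epithelial markers, led by KRT19, KRT7, KRT8 and CLDN4, epithelial libraries reached 7571 to 15433 CPM, compared with 3.86 to 5192 CPM in stromal libraries. Stromal markers, led by FN1, COL1A1, COL1A2 and COL3A1, summed to 17253 to 35309 CPM in epithelial libraries and to 41617 to 98981 CPM in stromal libraries, and 14 of the 15 were higher in all 3 stromal than in all 3 epithelial vehicle libraries. The exception, the fibronectin gene FN1, was higher in the epithelial ones. From their groups, 2 libraries stood apart. In stromal 50 mM replicate 3, the 15 epithelial markers lay at a median of 60.3% of their mean in epithelial 5 mM libraries, against 0.0143% to 13.6% in the other 5 stromal glucose libraries. Epithelial 5 mM replicate 2 had the highest KRT19 of all libraries, 4418 CPM, and the lowest EPCAM of the epithelial libraries, 149 CPM. The endothelial markers, led by VWF, EGFL7, TEK and PECAM1, summed to 17.4 to 83.7 CPM in epithelial libraries, and 5.16 to 24.0 CPM in stromal libraries. Of these markers, VWF was the most abundant, at 15.4 to 76.1 CPM in epithelial libraries and 0.865 to 18.0 CPM in stromal libraries. The endothelial genes PECAM1 and CDH5 did not exceed 2.83 and 1.08 CPM in any library. Leukocyte markers, led by CD14, CD68, CD163 and CSF1R, summed to 3.01 to 14.1 CPM in epithelial libraries, and 4.09 to 19.3 CPM in stromal libraries. Other pericyte genes, led by ITGA8, NOTCH3, NDUFA4L2 and MCAM, summed to 61.4 to 344 CPM in epithelial libraries, and 241 to 630 CPM in stromal libraries. Among the less abundant of them, RGS5, a marker of pericytes in many tissues, stayed between 0 and 5.25 CPM.

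The first question was where the contractile genes were expressed. They were stromal genes on this chip, with the exception of MYH11. In the 5 mM glucose libraries, 9 of the 10 had all 3 stromal values above all 3 epithelial values, as did 15.9% of all genes compared. The count was 10 at 50 mM glucose (14.4% of all genes), and 9 with vehicle (29.2%), 1 ng/mL insulin (29.1%) and 10 ng/mL insulin (29.1%). Without the library that stood apart it was 10 at each glucose concentration. Fewer libraries make separation easier for any gene, and the share of all genes under that omission is not given here. The median fitted log2 fold change of the 10 genes, stromal over epithelial, was 5.09 at 5 mM glucose, 3.40 at 50 mM glucose, 4.36 with vehicle, 4.37 with 1 ng/mL and 4.53 with 10 ng/mL insulin, and the median over all genes lay between -0.03 and 0.0074. Because the genes were chosen with these libraries already analysed, the levels by cell type are a description and carry no test. In bulk samples, fewer cells of a type and less RNA per cell cannot be told apart.

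**Figure D1:**
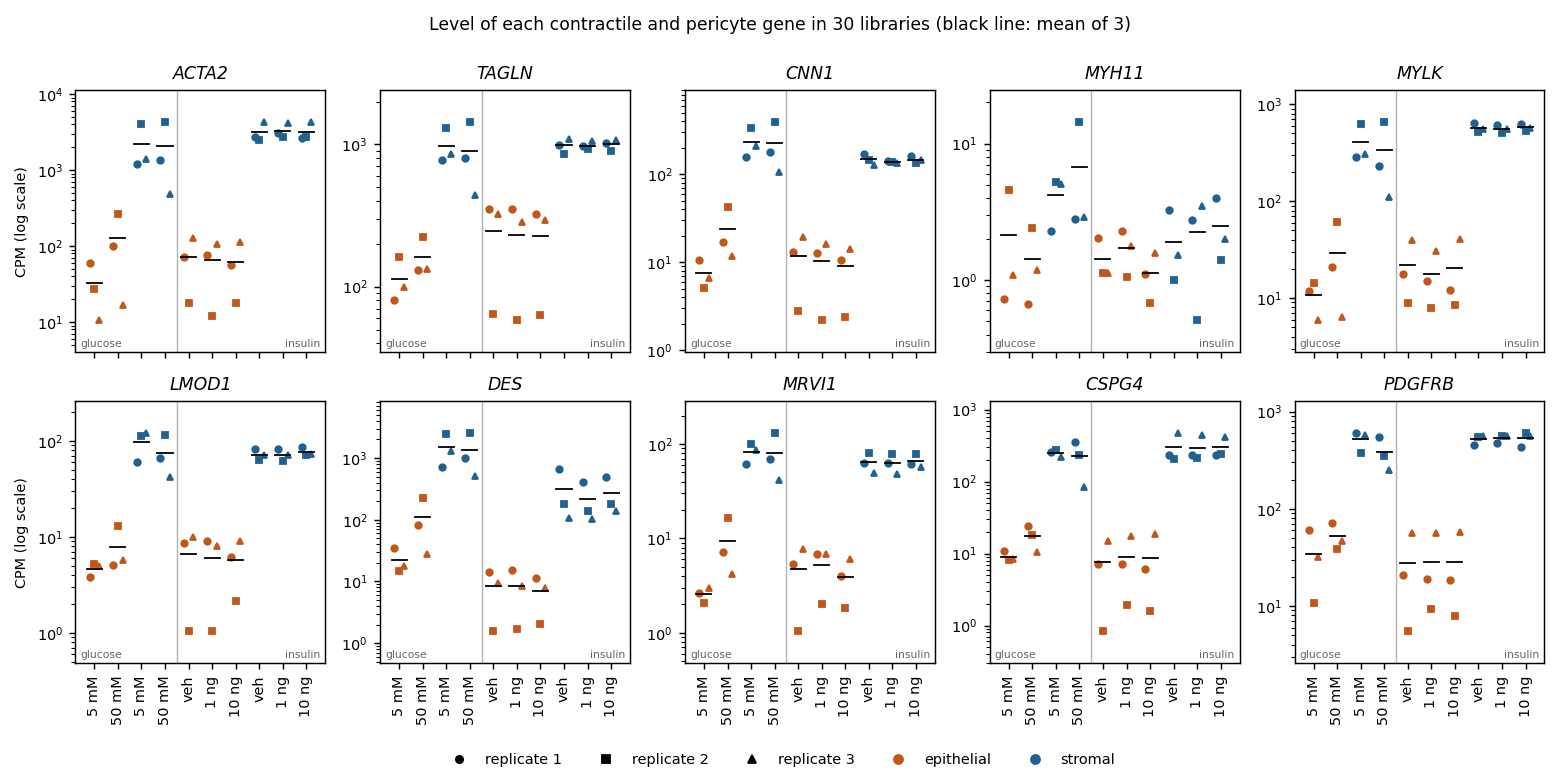
Level of each of the 10 genes in CPM (log axis) in all 30 libraries, by condition. Orange symbols are epithelial and blue symbols stromal libraries, the symbol shape gives the replicate number and the black line is the mean of 3. For 8 genes every stromal library lies above every epithelial library, while DES overlaps across the 2 experiments and MYH11 overlaps within them.

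ACTA2 encodes smooth muscle alpha-actin, the thin filament actin of contractile cells. Over 15 epithelial libraries it ran from 10.6 to 266 CPM with a median of 60.6, and over 15 stromal libraries from 478 to 4310.4 CPM with a median of 2743. In vehicle, the 3 epithelial libraries held 71.3, 17.8 and 129 CPM and the 3 stromal libraries 2756, 2469 and 4310.4 CPM, replicates 1 to 3 in turn. The fitted log2 fold change there was 5.86 (SE 0.55), a fold of 58.1. Actin genes have closely similar coding sequences, so reads shared between them are uncertain in uniquely mapped data. LMOD1, the smooth muscle leiomodin that starts new actin filaments, ran from 1.03 to 12.9 CPM in epithelial libraries, and from 42.4 to 120.5 CPM in stromal libraries. Its log2 fold change in vehicle was 3.73 (SE 0.57). Its annotation overlaps a long noncoding RNA, and whether the counting used strand is not given in the sources used here.

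TAGLN and CNN1 encode transgelin and calponin, proteins that bind actin filaments in differentiated smooth muscle. TAGLN had the smallest fold of the 9 genes: epithelial libraries held 58.0 to 350.2 CPM and stromal libraries 441 to 1438 CPM. In vehicle its epithelial values were 350.2, 64.2 and 326 CPM and its stromal values 989.6, 860.5 and 1097 CPM, a log2 fold change of 2.38 (SE 0.53). CNN1 separated more widely, at 2.20 to 42.4 CPM in epithelial libraries, and 105 to 393 CPM in stromal libraries. Its log2 fold change in vehicle was 3.94 (SE 0.59).

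MYH11 and MYLK supply the motor. MYH11, the smooth muscle myosin heavy chain and the classical marker of a mature smooth muscle cell, was low in most libraries. It held 0.673 to 4.59 CPM in epithelial libraries, and 0.509 to 14.4 CPM in stromal libraries, and the groups overlapped in 4 of the 5 conditions. In vehicle the epithelial values were 2.04, 1.14 and 1.13 CPM and the stromal values 3.24, 0.996 and 1.52 CPM, a log2 fold change of 0.42 (SE 0.32). At 50 mM glucose the stromal values, 2.82, 14.4 and 2.90 CPM, all exceeded the epithelial values of 0.673, 2.40 and 1.19 CPM. MYH11 overlaps the protein-coding gene NDE1 in the annotation, and reads of the pair may not be told apart. MYLK, the kinase that switches smooth muscle myosin on, contrasted with it. Epithelial libraries held 5.89 to 60.4 CPM of MYLK and stromal libraries 109.6 to 657 CPM, and the log2 fold change in vehicle was 5.00 (SE 0.45). In the annotation MYLK overlaps a pseudogene and PDGFRB a microRNA.

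DES encodes desmin, the intermediate filament of muscle cells. It varied widely between stromal libraries, from 102 to 2545 CPM. The 6 stromal glucose libraries held 513 to 2545 CPM and the 9 stromal insulin libraries 102 to 658 CPM. Epithelial libraries ran from 1.55 to 223 CPM, with the highest value in the 50 mM glucose group. Within each condition all 3 stromal values of DES lay above the epithelial values, and the log2 fold change in vehicle was 5.22 (SE 0.68). MRVI1, now also named IRAG1, encodes a partner of the inositol trisphosphate receptor through which nitric oxide signalling relaxes smooth muscle. It ran from 1.03 to 16.5 CPM in epithelial libraries, and from 41.7 to 131 CPM in stromal libraries, with a log2 fold change of 3.91 (SE 0.65) in vehicle.

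CSPG4, the NG2 proteoglycan, and PDGFRB, the receptor for platelet-derived growth factor B, are the surface proteins by which pericytes are usually recognised, though fibroblasts can carry both. CSPG4 ran from 0.827 to 24.5 CPM in epithelial libraries, and from 84.1 to 473 CPM in stromal libraries, and its log2 fold change in vehicle was 5.73 (SE 0.63). In stromal vehicle libraries CSPG4 was at 236, 203 and 473 CPM, with replicate 3 the highest at every insulin dose. PDGFRB ran from 5.48 to 71.1 CPM in epithelial libraries, and from 253 to 602 CPM in stromal libraries, with a log2 fold change of 4.78 (SE 0.73) in vehicle. Its stromal vehicle values, 455, 551 and 562 CPM, were close together, while its epithelial vehicle values, 20.9, 5.48 and 56.4 CPM, were not.

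The epithelial libraries held these genes at a low level that differed from library to library. Expressed as a percentage of the stromal mean at 5 mM glucose or vehicle, the median of the 10 genes lay between 2.88% and 14.8% in the 6 epithelial glucose libraries and between 1.48% and 11.4% in the 9 epithelial insulin libraries. The 15 stromal markers, collagens and other mesenchymal genes, gave medians of 3.82% to 12.3% and 1.11% to 10.8% in the same libraries. The pattern by replicate was alike in the insulin experiment. In the 3 replicate 2 libraries the 10 genes had medians of 1.48% to 1.57% and the stromal markers 1.11% to 1.31%, and in the 3 replicate 3 libraries the medians were 9.43% to 11.4% and 8.73% to 10.8%. In the glucose experiment, epithelial 50 mM replicate 2 held the 10 genes at a median of 14.8% and the stromal markers at 8.52%. The part that stromal cells or their RNA in the upper chamber had in the epithelial values was not tested.

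**Figure D2:**
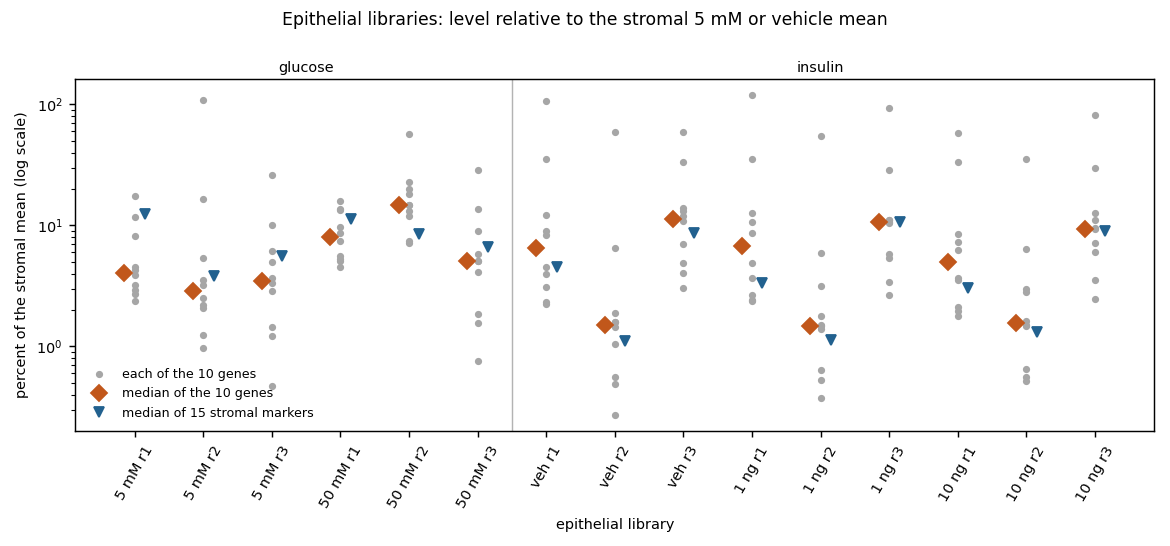
Level in each of the 15 epithelial libraries as a percentage of the stromal mean at 5 mM glucose or with vehicle (log axis). Grey points are the 10 genes, orange diamonds their median and blue triangles the median of 15 stromal markers. In the insulin libraries both medians are lowest in replicate 2, between 1.11% and 1.57%, and highest in replicate 3.

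The second question was whether a high glucose concentration changed the contractile genes. In epithelial libraries the 10 genes had a median log2 fold change of 0.96 for 50 over 5 mM glucose, against 0.0091 over all genes, but none passed the test. Of the 10, 9 were higher at 50 mM in all 3 pairs of replicates, as were 12.8% of all genes. An unadjusted p under 0.05 was reached by 6, against 1.55% of all genes, and every adjusted p was 0.804 (quasi-likelihood test in edgeR, adjusted by Benjamini and Hochberg's method). The called share of all genes was 0% as well. Because the list was chosen with values of these libraries in view, shares set beside those of all genes are a description. That holds for the later treatment comparisons too. The sizes, apart from those of TAGLN and CSPG4, rested largely on replicate 2. Its 5 mM library was the one that stood apart, and its 50 mM library had the highest epithelial values of ACTA2, DES, CNN1, MRVI1, MYLK and LMOD1.

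ACTA2 read 60.6, 27.6 and 10.6 CPM at 5 mM and 100.3, 266 and 16.8 CPM at 50 mM glucose in epithelial replicates 1 to 3. The groups overlapped, since the 50 mM value of replicate 3 lay below 2 of the 5 mM values. The fitted log2 fold change was 1.53 (SE 0.57, a fold of 2.88), and the log2 ratios within pairs were 0.73, 3.27 and 0.67. DES had the largest fitted change of the 10, a log2 fold change of 1.87 (SE 0.68). It read 35.4, 14.5 and 18.2 CPM at 5 mM and 83.4, 223 and 27.9 CPM at 50 mM.

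The ranges of CNN1 and MRVI1 did not overlap between the concentrations. CNN1 read 10.6, 5.11 and 6.65 CPM at 5 mM and 17.2, 42.4 and 11.7 CPM at 50 mM, a log2 fold change of 1.49 (SE 0.52). MRVI1 read 2.66, 2.08 and 3.01 CPM against 7.15, 16.5 and 4.21 CPM, a log2 fold change of 1.63 (SE 0.52). All of these MRVI1 values were low. In both genes the pair of replicate 2 had the largest ratio.

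Among the others, TAGLN differed by a smaller but more even amount. It read 80.3, 162 and 99.7 CPM at 5 mM and 132, 223 and 134 CPM at 50 mM, a log2 fold change of 0.54 (SE 0.21) with pair ratios of 0.71, 0.46 and 0.42. The pericyte proteoglycan CSPG4 read 10.7, 8.15 and 8.43 CPM against 24.5, 18.2 and 10.4 CPM, a log2 fold change of 0.90 (SE 0.30), with only the 50 mM value of replicate 3 inside the 5 mM range. PDGFRB read 60.5, 10.8 and 31.7 CPM against 71.1, 38.9 and 46.6 CPM, overlapping ranges with a log2 fold change of 0.87 (SE 0.35). The kinase MYLK stood at 1.02 (SE 0.41) and LMOD1 at 0.66 (SE 0.33). MYH11 alone pointed the other way, at -0.37 (SE 0.43), and its pairs differed in sign.

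Without replicate 2, 5 of the 10 genes passed the test as higher at 50 mM, against 0.611% of all genes called higher and 1.59% called in either direction. By edgeR's quasi-likelihood test on the remaining 4 libraries, ACTA2 had a log2 fold change of 0.75 (adjusted p = 0.00210), TAGLN 0.60 (0.00542), CNN1 0.79 (0.0141), DES 1.00 (0.00161) and CSPG4 0.84 (0.0345). Under the same omission MRVI1 was at 1.02 (adjusted p = 0.0718) and PDGFRB at 0.42 (0.0578). The ratios were thus smaller for ACTA2, CNN1 and DES without that pair, and the adjusted p-values lower. Leaving out replicate 1 or replicate 3 instead gave no calls among the 10. The omission of replicate 2 was singled out after the values were seen, and 4 libraries give little measure of spread. Over all genes 221 were then called, against 0 with all replicates. These calls, and those of other lists under the same omission, are a description.

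The stromal markers moved in the same direction in these epithelial libraries. Their median log2 fold change was 0.69, and 12 of the 13 that could be fitted were above 0, against 50.7% of all genes. An unadjusted p under 0.05 in the edgeR fit was reached by 4, against 1.55% of all genes. By pair, the stromal markers had median log2 ratios of 0.11, 1.30 and 0.41, and the 10 contractile genes 0.72, 1.95 and 0.45. The epithelial markers had a median log2 fold change of -0.19. Without replicate 2, the collagens COL1A1, COL1A2 and COL3A1 and the matrix glycoprotein SPARC passed the test as well. These were 4 of the 13 markers, against 0.611% of all genes called higher. The part of the stromal markers in the result was not tested.

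In stromal libraries the 10 genes did not pass the test either, and 9 of the 10 fitted changes were below 0. None had an unadjusted p under 0.05, against 4.87% of all genes. PDGFRB alone was lower in all 3 pairs, as were 10.4% of all genes. The median log2 fold change was -0.38, against -0.03 over all genes, with adjusted p-values from 0.696 to 0.849. ACTA2 read 1188, 4079 and 1398 CPM at 5 mM and 1375, 4307 and 478 CPM at 50 mM, so the groups overlapped and replicate 2 was highest at both concentrations. Its log2 fold change was -0.47 (SE 0.45). For MYLK the estimate was -0.63 (SE 0.36) and for PDGFRB -0.54 (SE 0.30). LMOD1 stood at -0.50 (SE 0.41), CSPG4 at -0.44 (SE 0.43), DES at -0.33 (SE 0.45), TAGLN at -0.32 (SE 0.30), CNN1 at -0.25 (SE 0.32) and MRVI1 at -0.22 (SE 0.35). MYH11 was at 0.29 (SE 0.51).

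The stromal estimates rested mainly on the pair of replicate 3. The median log2 ratio of the 10 genes was 0.18 in the pair of replicate 1, 0.07 in that of replicate 2 and -1.27 in that of replicate 3. All 10 genes were lower at 50 mM in replicate 3, by ratios from -0.80 (MYH11) to -1.55 (ACTA2). Stromal markers had a median ratio of -1.46 in that pair, and the epithelial markers one of 9.80. Without replicate 3 the median of the 10 genes was 0.10, the estimates ran from -0.15 for MYLK to 0.98 for MYH11, and none was called, as was no gene of the 13719 tested.

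**Figure D3:**
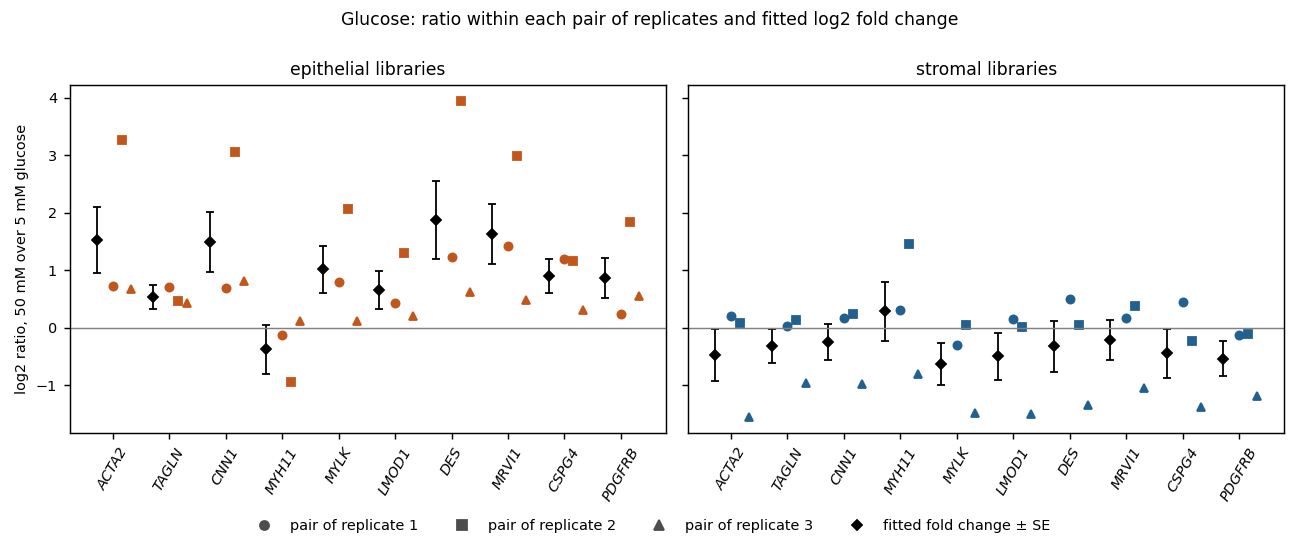
Log2 ratio of 50 mM over 5 mM glucose for each gene in epithelial (left) and stromal (right) libraries. Coloured symbols are the ratios within pairs of the same replicate number, and black diamonds are fitted log2 fold changes with their SE. Epithelial ratios are above 0 in all pairs for every gene but MYH11. Of those genes, all but TAGLN and CSPG4 have their largest epithelial ratio in replicate 2. The stromal values below 0 are mostly those of replicate 3.

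The difference between the glucose effects in the 2 cell types, stromal minus epithelial, was below 0 for all of the genes but MYH11. It was -1.99 (SE 0.84) on the log2 scale for ACTA2, -2.19 (SE 0.93) for DES, -1.85 (SE 0.68) for MRVI1 and -1.40 (SE 0.52) for PDGFRB. An unadjusted p under 0.05 was reached by 7 of the 10 genes, against 7.53% of all genes, and none passed (lowest adjusted p = 0.640, edgeR's quasi-likelihood test), as was so of all 14640 genes tested. Both libraries that stood apart entered this comparison.

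The third question was the response to insulin, and here the contractile genes moved little. Over 10 genes, 2 cell types and 3 comparisons of the doses there were 60 fits. Their log2 fold changes ran from -0.60 to 0.39, and from -0.40 to 0.33 without MYH11. None of the 60 was called, and the lowest adjusted p was 0.179. Over all genes the called share was 0.124% in epithelial and 0% in stromal libraries for 10 ng/mL insulin over vehicle, 0% and 0.0157% for 1 ng/mL over vehicle, and 0% and 0.0313% for 10 over 1 ng/mL. An unadjusted p under 0.05 was reached in 8 fits, 6 of them epithelial, in ACTA2, TAGLN, CNN1, MYLK and DES. In epithelial libraries these were 3 of the 10 genes at 1 ng/mL over vehicle (2.95% of all genes), 3 at 10 ng/mL over vehicle (6.96%) and 0 for 10 over 1 ng/mL (4.44%). In stromal libraries they were 1 (5.16%), 0 (2.79%) and 1 (3.91%) in the same order.

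In epithelial libraries ACTA2 read 71.3, 17.8 and 129 CPM with vehicle, 77.2, 12.0 and 108 CPM with 1 ng/mL and 56.5, 17.8 and 113 CPM with 10 ng/mL insulin. The doses overlapped throughout, and replicate 2 was the lowest at each. For 10 ng/mL over vehicle its log2 fold change was -0.22 (SE 0.06), with an adjusted p of 0.210 by edgeR's quasi-likelihood test. Without replicate 2 it was -0.25 and passed (adjusted p = 0.00838), when 0.591% of all genes were called. Replicate 2 was the pair in which ACTA2 read 17.8 CPM both with vehicle and with 10 ng/mL. With each replicate left out in turn, the estimate ran from -0.26 to -0.14, with adjusted p-values by edgeR of 0.00838 to 0.937. CNN1 had a log2 fold change of -0.38 (SE 0.12, adjusted p = 0.433 by edgeR) for the same doses, and was lower in all 3 pairs, as were 12.4% of all genes. It read 13.3, 2.79 and 19.3 CPM with vehicle and 10.7, 2.38 and 14.1 CPM with 10 ng/mL. MYLK was lower in all 3 pairs at 1 ng/mL (9.86% of all genes), with a log2 fold change of -0.29 (SE 0.09), and TAGLN had estimates of -0.12 (SE 0.05) at 1 ng/mL and -0.11 (SE 0.04) at 10 ng/mL. The 2 contrasts with vehicle share the vehicle libraries.

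In stromal libraries DES was the one gene of the 10 with an unadjusted p under 0.05. It read 658, 177 and 106 CPM with vehicle, 409, 139.8 and 102 CPM with 1 ng/mL and 499, 178 and 137 CPM with 10 ng/mL insulin. Replicate 1 was the highest at each dose, by more than the doses differed. At 1 ng/mL the log2 fold change over vehicle was -0.36 (SE 0.08, adjusted p = 0.561 by edgeR), with pair ratios of -0.69, -0.34 and -0.05, all lower as in 18.1% of all genes. From 1 to 10 ng/mL it was 0.33 (SE 0.06, adjusted p = 0.179), with pair ratios of 0.29, 0.35 and 0.42, all higher as in 15.3% of all genes. The 10 ng/mL libraries differed from vehicle by -0.03 (SE 0.12). Both contrasts rest on the same 1 ng/mL libraries. Epithelial markers lay at a median of 3.71% of the epithelial mean in stromal vehicle replicate 2 and 3.67% in stromal 10 ng/mL replicate 1, and at no more than 0.387% in the other 7 libraries, and KRT19 was called for 10 over 1 ng/mL, at 3.63 on the log2 scale. Their part in the DES values was not tested. The call on DES moved with the replicates. Without replicate 3, the pair with the ratio of -0.05, the 1 ng/mL estimate was -0.49 (adjusted p = 2.0e-05 by edgeR, 0.804% of all genes called). Without replicate 1 the estimate for 10 over 1 ng/mL was 0.39 (adjusted p = 0.000334, 0.515% called). With each replicate left out in turn, the 1 ng/mL estimate ran from -0.49 to -0.19, with adjusted p-values by edgeR up to 0.9997. The estimate for 10 over 1 ng/mL ran from 0.28 to 0.39, with adjusted p-values up to 0.539.

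The other 5 genes gave values close to 0 in stromal libraries apart from MYH11. CSPG4 ran from 0.0048 to 0.03 on the log2 scale over the 3 comparisons, PDGFRB from -0.03 to 0.06, LMOD1 from 0.0081 to 0.09 and MRVI1 from -0.0049 to 0.05. MYH11 ran from 0.16 to 0.39, with 0.509 to 4.01 CPM behind it. The lowest unadjusted p of these 5 genes in stromal libraries was 0.117, that of LMOD1 in the edgeR fit. In the tests of a difference between cell types none of the 10 genes passed at any dose. An unadjusted p under 0.05 was reached by 2 for 1 ng/mL over vehicle (6.78% of all genes), 2 for 10 ng/mL over vehicle (4.05%) and 3 for 10 over 1 ng/mL (6.83%), and the called shares of all genes were 0.658%, 0% and 0.754%. The lowest adjusted p by edgeR was that of DES for 10 over 1 ng/mL, 0.166, with a difference of 0.56 (SE 0.15).

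**Figure D4:**
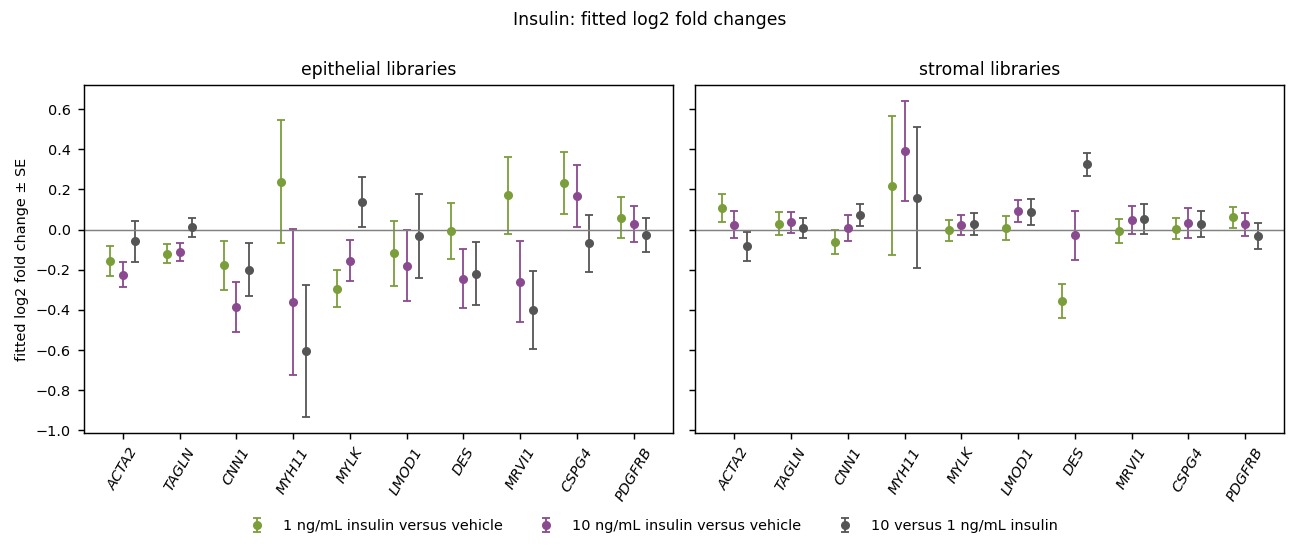
Fitted log2 fold change with its SE for each gene under the 3 comparisons of insulin doses, in epithelial (left) and stromal (right) libraries. All 60 estimates lie between -0.60 and 0.39. The stromal estimates apart from those of MYH11 and DES lie near 0.

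Replicates differed by far more than insulin doses did. In epithelial insulin libraries replicate 2 was the lowest at every dose for 9 of the 10 genes. The replicate number took 90.6% to 99.6% of the variance of log2 CPM for those 9 genes and 51.4% for MYH11, against a median of 72.5% over all genes, and the dose took 0.173% to 3.18% of it for the 9. In stromal insulin libraries the replicate took 56.5% (CNN1) to 97.5% (CSPG4), against a median of 61.1%. In stromal glucose libraries replicate 2 was the highest at both concentrations for 7 of the 10. In epithelial glucose libraries the concentration took 62.4% of the variance for MRVI1, 58.4% for CNN1, 56.8% for CSPG4 and 50.7% for DES, against a median of 11.2%. For LMOD1, TAGLN, PDGFRB, ACTA2 and MYLK it took 19.9% to 33.7%, and for MYH11 3.63%. The replicate took 60.4% to 88.5% in ACTA2, PDGFRB, TAGLN, MYLK and MYH11.

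How closely the genes varied together differed by experiment. Within the 15 epithelial libraries, which share replicates and experiments, the median Pearson correlation of log2 CPM over pairs of the 10 genes was 0.70, with 0.67 in the 6 of the glucose experiment and 0.90 in the 9 of the insulin experiment. Within the 15 stromal libraries it was 0.39, with 0.83 in the 6 glucose and 0.09 in the 9 insulin libraries. MYH11 had the lowest median correlation with the others among epithelial libraries, 0.23. In the stromal insulin libraries the genes took different orders: ACTA2 and CSPG4 were highest in replicate 3, DES in replicate 1 and MRVI1 in replicate 2 at every dose.

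Of 8935 genes with a mean of at least 10 CPM, those most like ACTA2 over all 30 libraries, beside MYLK, were HSPB7, ZFHX4, SYNPO2, TPM2 and ACTG2, with correlations of 0.98 to 0.99. The cell types form separate clusters of libraries in that figure. Within the epithelial and the stromal libraries ACTG2, the other smooth muscle actin, correlated with ACTA2 at 0.99 and 0.70. For SYNPO2, which encodes an actin-bundling protein of the muscle Z-disc, the values were 0.97 and 0.89. TPM2, the beta-tropomyosin of muscle, stood at 0.88 and 0.93, HSPB7, a small heat shock protein of heart and muscle, at 0.94 and 0.90, and ZFHX4, a transcription factor, at 0.93 and 0.94. The stromal values pool both experiments. Within the 9 stromal insulin libraries alone the correlation with ACTA2 was -0.35 for SYNPO2, 0.30 for ACTG2, 0.36 for ZFHX4, 0.53 for TPM2 and 0.68 for HSPB7. TPM2 ran from 9.71 to 99.95 CPM in epithelial libraries, and from 262 to 1091 CPM in stromal libraries, and ACTG2 from 2.63 to 72.3 CPM and from 126 to 1067 CPM.

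Other genes of the contractile apparatus were less divided between the cell types. Of 24 further contractile and cytoskeletal genes fitted in vehicle libraries, 13 lay higher in all stromal than in all epithelial libraries and 3 lower (29.2% and 36.3% of all genes), with a median log2 fold change of 0.86. The 4 most abundant overlapped: FLNA and TLN1, which link actin to membrane and integrins, differed by 0.34 (SE 0.14) and 0.27 (SE 0.12), TPM4 by -0.11 (SE 0.14), and TPM1 ran from 1800.3 to 3888 CPM in epithelial libraries, and from 1914 to 3662 CPM in stromal libraries. SYNPO2 differed by 5.54 (SE 0.48), TPM2 by 4.79 (SE 0.60) and ACTG2 by 4.67 (SE 0.45). Of the non-muscle genes, ACTB, the cytoplasmic beta-actin, differed by 0.19 (SE 0.16), and ACTG1 and MYH9 were higher in epithelial libraries, with stromal over epithelial log2 fold changes of -0.51 (SE 0.20) and -0.58 (SE 0.16). MYH10, the non-muscle myosin IIB heavy chain, was the 1 of 6 higher in stromal libraries, with 731 to 2971 CPM against 156 to 514 CPM. None of these was called in any treatment comparison with all replicates. When replicate 2 was left out, ACTG2, CALD1, SYNPO2, TNS1 and TPM2 passed in epithelial libraries as higher at 50 mM glucose. They were 5 of the 24, against 0.611% of all genes called higher.

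Genes of myosin phosphorylation and calcium signalling followed no single direction. Of 12 fitted in vehicle, 6 were higher in all stromal and 2 in all epithelial libraries (29.2% and 36.3% of all genes). RHOA, the GTPase that restrains myosin phosphatase, differed by 0.05 (SE 0.12). Its effector kinase ROCK2 was higher in stromal libraries by 0.66 (SE 0.12), and so was the phosphatase's targeting subunit PPP1R12A, by 0.81 (SE 0.12). The catalytic subunit PPP1CB was lower at -1.18 (SE 0.11). OXTR, the oxytocin receptor of uterine muscle and endometrium, held 76.7 to 107 CPM in epithelial insulin libraries and 0 to 3.48 CPM in stromal ones. It was called in the test of a difference between cell types for 10 over 1 ng/mL, where all 3 stromal 1 ng/mL libraries were at 0 and the 10 ng/mL libraries at 3.48, 0 and 0 CPM, so no fold is given. Of the 15 epithelial markers, 12 were called in that same test (0.754% of all genes), and 12 in the test for 1 ng/mL over vehicle (0.658%).

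The platelet-derived growth factor system was split between the chambers. Of 5 genes fitted in vehicle, 3 were higher in all stromal and 2 in all epithelial libraries (29.2% and 36.3% of all genes). PDGFRA, the sister receptor of PDGFRB, was higher in stromal libraries by 4.43 (SE 0.55) and ran there from 377 to 2050.1 CPM. PDGFC, a ligand of PDGFRA, was higher by 3.26 (SE 0.41). PDGFB, the main ligand of PDGFRB, was higher in epithelial libraries: its vehicle values were 194, 145 and 146 CPM in epithelial libraries, and 0, 2.35 and 0.11 CPM in stromal libraries. PDGFA was lower in stromal libraries, at -1.68 (SE 0.36). Of 6 other pericyte genes fitted, 2 were higher in all stromal libraries and 1 in all epithelial ones, shares near or below the 29.2% and 36.3% of all genes. ITGA8, an integrin subunit of mesenchymal and contractile cells, was higher by 4.88 (SE 0.61), with 149 to 497 CPM in stromal libraries. NOTCH3, the Notch receptor of mural cells, overlapped (-0.43, SE 0.18), as did the adhesion molecule MCAM (0.63, SE 0.32), and NDUFA4L2, a mitochondrial protein, was higher in epithelial libraries in the insulin experiment only. In vehicle it read 27.8, 23.5 and 39.3 CPM in epithelial and 0.350, 0.181 and 0.975 CPM in stromal libraries, while at both glucose concentrations the cell types overlapped.

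The regulators of the contractile genes were divided between the cell types. Of 10 fitted in vehicle, 5 were higher in all stromal and 4 in all epithelial libraries (29.2% and 36.3% of all genes), with a median log2 fold change of 0.59. KLF4, a factor that represses smooth muscle genes, was higher in stromal libraries by 1.07 (SE 0.15) and TEAD3 by 0.92 (SE 0.09). The cofactor FHL2 and TEAD1 were lower, at -0.76 (SE 0.14) and -0.32 (SE 0.09). The 6 regulators that follow were named after their values were seen. TGFB1I1, a coactivator at focal adhesions, was higher in every stromal library, with 67.7 to 126 CPM against 26.3 to 50.4 CPM in epithelial libraries. GATA6, a transcription factor of smooth muscle and other mesodermal cells, ran from 6.25 to 41.3 CPM in stromal libraries and from 0 to 8.89 CPM in epithelial ones. SRF, which binds the CArG box, overlapped between the cell types at 30.8 to 53.9 CPM in epithelial libraries, and 34.2 to 68.4 CPM in stromal libraries. Its coactivator MRTFA was higher in stromal libraries by 0.90 (SE 0.09), and MRTFB lower, at -1.27 (SE 0.16). Myocardin, MYOCD, the most muscle-restricted of these coactivators, was lower in stromal libraries, at -3.31 (SE 0.23). It held 19.0 to 72.2 CPM in epithelial libraries, and 1.15 to 20.0 CPM in stromal libraries, the reverse of ACTA2. With all replicates no regulator was called in any treatment comparison. Without replicate 2, KLF4 was called as lower in epithelial libraries at 50 mM glucose, and so was OXTR. In the same fit PDGFRA and ITGA8 were called as higher and the epithelial marker PAX8 as lower, against 1.59% of all genes called in either direction.

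**Figure D5:**
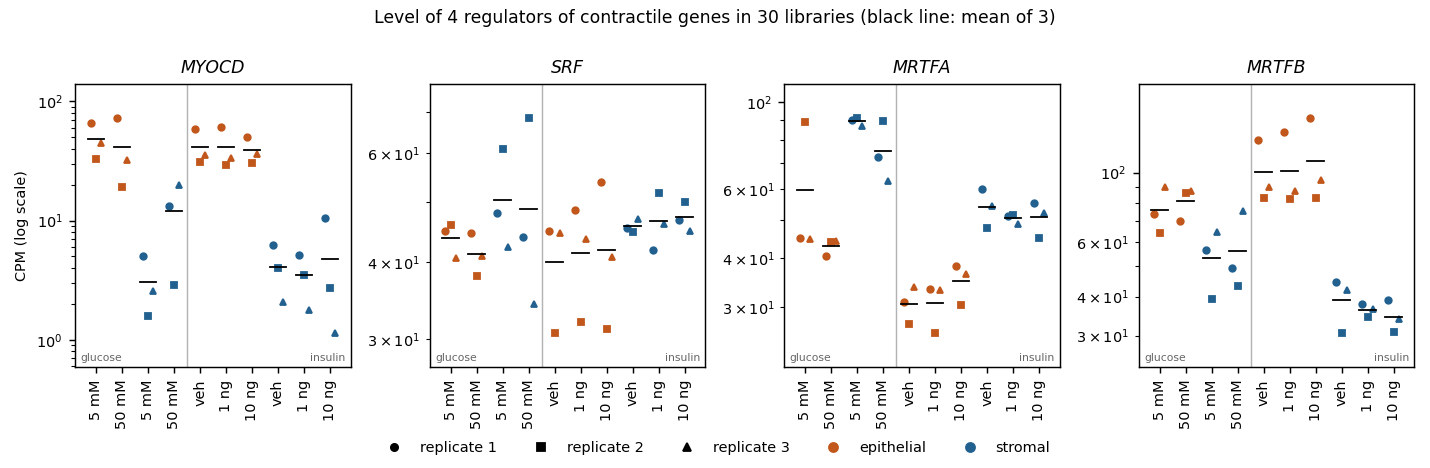
Level in CPM (log axis) of MYOCD, SRF, MRTFA and MRTFB in all 30 libraries, drawn as for the 10 genes. In vehicle MYOCD and MRTFB are higher in epithelial libraries (orange), MRTFA is higher in stromal libraries (blue), and SRF overlaps.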

How the data were processed

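Libraries were single-end, stranded and sequenced to 75 bases. Per the paper's methods and the submitters' processing notes, the authors trimmed reads with Cutadapt, aligned them with Rsubread and counted uniquely mapped reads per gene with featureCounts (Ensembl release 96). The authors deposited raw counts in 2 tables of 27607 genes. Their 13 tables of DESeq2 comparisons were read for gene names and biotypes only, and their fold changes and p-values were not used.

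CPM are counts per 1000000 of the library total. Each comparison was fitted on its own libraries with edgeR 4.0.16 (R 4.3.3): TMM, filterByExpr, quasi-likelihood F test, replicate number as a block as in the study, Benjamini-Hochberg adjustment over all genes. Comparisons of treatment had 6 libraries and tests of a difference between cell types 12. Called means adjusted p under 0.05 and a log2 fold change beyond 0.1. SE is the fold change over the root of F. Same-numbered libraries deviated together in all 24 treatment pairs (r of 0.198 to 0.860). In 23 of the 24 the own number gave the highest r. The exception was the stromal glucose pair of replicate 3, with 0.200 against 0.272 for another number. Cell types were compared without a test. Correlations and shares of variance used log2(CPM + 1). Scripts were tested on simulated counts.

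The 10 genes and the other lists were chosen with earlier results of these data known. All 10 genes were described; of each other list, the 4 highest in mean CPM and any gene called were named (called epithelial markers as counts), with the 5 genes most like ACTA2. Other names were chosen after their values were seen. Alternatives were DESeq2 1.42.0, RLE scaling, no filter, no block and leaving out each replicate. Sequences are not shown here.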

Additional observations from a re-analysis of the deposited data

Results flagged for a closer look

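PDGFRB, the receptor for platelet-derived growth factor B, moved in opposite directions with glucose in the 2 cell types: every epithelial pair was higher at 50 mM and every stromal pair lower. The fitted log2 fold changes were 0.87 (SE 0.35) in epithelial and -0.54 (SE 0.30) in stromal libraries. Their difference, stromal minus epithelial, was -1.40 (SE 0.52) and did not pass in edgeR's quasi-likelihood test over all genes (unadjusted p = 0.0282, adjusted p = 0.640). The largest epithelial ratio came from replicate 2 (1.84) and the largest stromal ratio from replicate 3 (-1.19), the pairs that hold the libraries that stood apart.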

How the results depend on the processing

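The number of the 10 genes called was 0 in all 12 tested comparisons with edgeR, and it was 0 in each also with DESeq2, with RLE scaling and with no replicate block. With no filter on low counts it was 1 (DES) for stromal 1 ng/mL insulin over vehicle, for stromal 10 over 1 ng/mL, and for the difference of that last effect between cell types. Leaving out 1 replicate in turn gave 0 to 5 calls for epithelial glucose, 0 to 1 for epithelial 10 ng/mL insulin over vehicle, 0 to 1 for stromal 1 ng/mL over vehicle and 0 to 1 for stromal 10 over 1 ng/mL, and 0 elsewhere; why was not tested. Signs turned only when a replicate was left out: MYH11 in epithelial glucose (log2 fold change -0.60 to 0.053) and, in stromal glucose, ACTA2 (-0.85 to 0.12), TAGLN (-0.53 to 0.059), CNN1 (-0.48 to 0.18), MYH11 (-0.28 to 0.98), LMOD1 (-0.86 to 0.052), DES (-0.77 to 0.24), MRVI1 (-0.46 to 0.25) and CSPG4 (-0.92 to 0.084). Over all genes, DESeq2 called 199 in stromal glucose and 243 for the difference of the glucose effect between cell types, where edgeR called 0. The count of genes separated by cell type stayed at 9 or 10, also without the libraries that stood apart, an omission chosen after seeing the data. Shares of all genes with libraries left out are not given, so these counts have no background beside them. Depth limits MYH11 most.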
